A study of Mus musculus with 15 samples.

Results

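The Ndrg family comprises 4 mouse genes, Ndrg1, Ndrg2, Ndrg3 and Ndrg4, and its members here are every transcript of the deposited expression table that the GENCODE M21 annotation assigns to one of these genes. Of 47 annotated transcripts of the family, 9 were listed among the 10370 transcripts of the table: 1 of 13 for Ndrg1, 2 of 13 for Ndrg2, 2 of 10 for Ndrg3 and 4 of 11 for Ndrg4. The table held no transcript of low mean count, and the other annotated transcripts were not analysed here. Total RNA was sequenced from the dissected cortex of male C57BL/6 mice, labelled as 12 weeks old, in 7 Sham and 8 HF-HI libraries taken 1 month after the procedure. HF-HI stands for high-frequency head impact, a closed-head model in which mice under isoflurane anesthesia received several impacts a day on consecutive days, and the Sham group went through the procedure, isoflurane included, without being struck. No gene was altered in either group. Whole cortex was used, so that a change in the number of cells of a type and a change in RNA per cell cannot be told apart. The labels do not state that each library came from its own animal, and p-values measure the spread between these libraries.

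The family was selected on Ndrg2 in this contrast: transcript Ndrg2-202 was the fifth of 5342 lower transcripts by p-value, and the other listed Ndrg2 transcript was higher in HF-HI. Differences between HF-HI and Sham for Ndrg2 are therefore given below as a description, with no test. Ndrg1, Ndrg3 and Ndrg4 entered by name, and their differences were tested.

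NDRG proteins are cytoplasmic proteins with an alpha/beta hydrolase fold that lacks the residues needed for catalysis. The founding member, NDRG1 (N-myc downstream regulated gene), is repressed by MYC proteins, induced by hypoxia and p53, and phosphorylated by the kinase SGK1 and then by GSK3, and its loss causes a demyelinating neuropathy. In the brain, Ndrg1 is known from oligodendrocytes and Ndrg2 from astrocytes, where it is used as a marker, while Ndrg3 and Ndrg4 are largely neuronal.

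Transcripts of 3 of the 4 genes differed by a short coding exon that is either present or skipped, known as a cassette exon. The exon and the last and first 12 bases of its neighbours are shown because the listed transcripts of each gene divide into those with and those without it. Each is written 5′ to 3′ in the direction of the gene, with the cassette exon in capitals, from the GENCODE M21 transcripts of GRCm38 (mm10).
Ndrg2 exon 3 of 16, chr14:51911086-51911127, minus strand: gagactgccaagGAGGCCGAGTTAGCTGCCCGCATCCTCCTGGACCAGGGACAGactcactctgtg
Ndrg3 exon 16 of 17, chr2:156929932-156929970, minus strand: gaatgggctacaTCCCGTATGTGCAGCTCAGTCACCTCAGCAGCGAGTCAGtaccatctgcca
Ndrg4 exon 14 of 15 in Ndrg4-202, chr8:95712325-95712363, plus strand: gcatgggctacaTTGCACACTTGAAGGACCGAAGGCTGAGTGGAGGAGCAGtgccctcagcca

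The Ndrg2 exon has 42 bases and follows the first 25 codons, near the amino-terminal end, and it adds 14 codons without moving the reading frame. The exons of Ndrg3 and Ndrg4 lie instead near the carboxy-terminal end of the coding sequence. Both have 39 bases, add 13 codons in frame and begin at the second position of a codon, and they are identical at 18 of 39 bases (46.2%).

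Of Ndrg2 (ENSMUSG00000004558, chr14:51905271-51914158, minus strand), Ndrg2-201 (ENSMUST00000004673) contains the exon and Ndrg2-202 (ENSMUST00000111632) skips it. The pair share 2045 bases, which is 97.4% of Ndrg2-201 and 97.2% of Ndrg2-202. They also differ at their ends, so that 54 bases occur only in Ndrg2-201, of which 42 are the exon, and 58 only in Ndrg2-202. Ndrg3 (ENSMUSG00000027634, chr2:156927345-156992056, minus strand) was listed with Ndrg3-201 (ENSMUST00000069600, with the exon) and Ndrg3-202 (ENSMUST00000072298, without it), which share 2573 bases. Ndrg4 (ENSMUSG00000036564, chr8:95676980-95715119, plus strand) has alternative start sites up to 24978 bases apart among its listed transcripts. Ndrg4-201 (ENSMUST00000041318) and Ndrg4-210 (ENSMUST00000166358) begin at the upstream one, and Ndrg4-202 (ENSMUST00000073139) and Ndrg4-203 (ENSMUST00000080666) at the downstream one. Of these, only Ndrg4-203 skips the cassette exon. Ndrg4-202 has 228 bases that Ndrg4-203 lacks, of which 39 are the exon and most others lie in its longer last exon. Ndrg4-210 is annotated as a target of nonsense-mediated decay, the pathway that removes mRNAs with an early stop codon. One of its exons is longer by 26 bases, and 243 of its 2963 bases are coding. Ndrg1 (ENSMUSG00000005125, chr15:66929318-66969640, minus strand) had a single listed transcript, Ndrg1-201 (ENSMUST00000005256), with 16 exons.

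**Figure D1:**
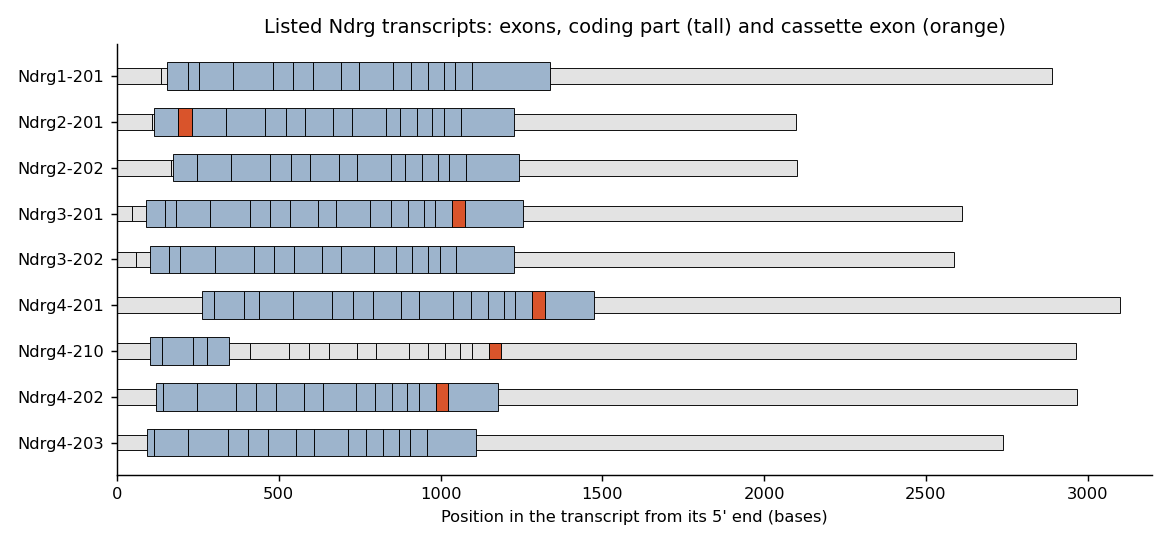
Exon structure of the 9 listed Ndrg transcripts, drawn to scale along the transcript in bases from the 5′ end, with coding parts tall, non-coding parts low and the cassette exon in orange. The exon of Ndrg2-201 lies near the start of the coding part, those of Ndrg3-201, Ndrg4-201 and Ndrg4-202 lie near its end, and in Ndrg4-210 the coding part stops long before the exon.

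Values are normalized counts, obtained by reversing the variance-stabilizing transformation (VSD) of the deposited table. The listed transcripts held 5798810 to 10582858 reads per Sham library and 3496103 to 8666307 per HF-HI library, so that HF-HI was the shallower group (size factors 0.818 to 1.47 in Sham, 0.501 to 1.22 in HF-HI). HF-HI replicate 2 stood apart from the other libraries on the first principal component, and without it the VSD difference was 0.10 for Ndrg2-201 and −0.11 for Ndrg2-202. Cortical excitatory neuron markers were present, with all 13 genes of the list listed. Their summed level was 27256 to 28923 normalized counts in the Sham group and 26674 to 30481 in HF-HI. Of the striatal projection neuron list, 13 of 14 genes were listed too.

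Ndrg4 was the most abundant family member and Ndrg1 the least. Per kilobase of transcript and summed over the listed transcripts of a gene, Ndrg4 had 3732 normalized counts per kb in Sham and 3671 in HF-HI. Ndrg2 followed with 1545 and 1487, then Ndrg3 with 1063 and 1030, and Ndrg1 with 200.1 and 201 normalized counts per kb. The order was the same in 15 of 15 libraries, with Ndrg4 between 2.25 and 2.72 times Ndrg2, Ndrg2 between 1.36 and 1.60 times Ndrg3, and Ndrg3 between 4.63 and 6.01 times Ndrg1. The ranges of neighbours in this order did not overlap. By summed normalized counts not divided by length, Ndrg4 ranked 43 of 7740 genes, Ndrg2 316, Ndrg3 398 and Ndrg1 2881.

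**Figure D2:**
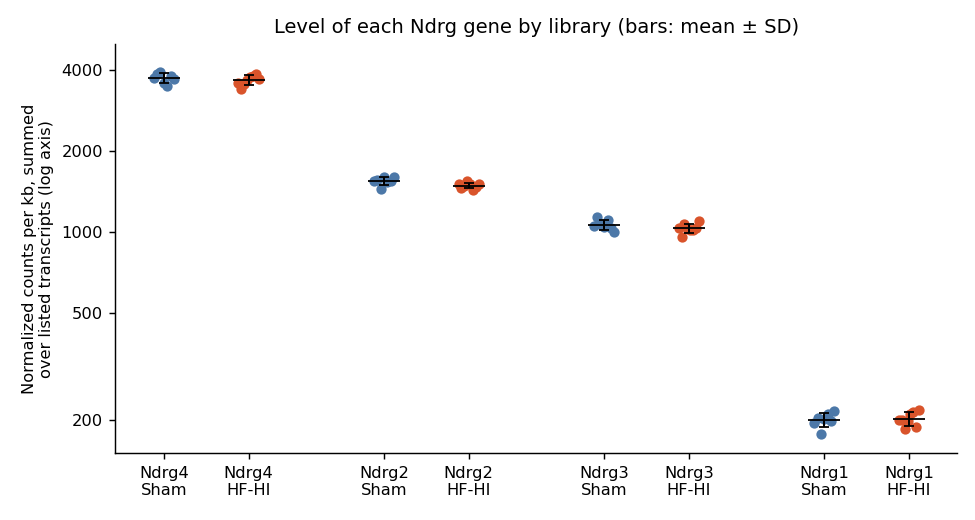
Level of each Ndrg gene in every library, in normalized counts per kb summed over its listed transcripts, on a log axis, with 1 point per library and the mean ± SD of 7 Sham and 8 HF-HI libraries. The 4 genes form separate bands around overall means of 3699, 1514, 1045 and 201 normalized counts per kb, and Sham and HF-HI libraries overlap within each band.

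Within Ndrg2, the transcript without the exon was lower and the transcript with it was higher in HF-HI. Ndrg2-202 had 2078, 2268 and 2445 normalized counts in Sham (lowest, median and highest of 7 libraries) and 1917, 1972 and 2096 in HF-HI (of 8). The groups overlapped by a narrow margin: 7 of 8 HF-HI libraries lay below every Sham library, and 6 of 7 Sham libraries lay above every HF-HI library. The means were 2255 ± 141 (SD, n = 7) in Sham and 1988 ± 72.7 (SD, n = 8) in HF-HI, a change of −11.8% from Sham to HF-HI and a log2 ratio of −0.18. On the deposited VSD scale the difference was −0.11.

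Ndrg2-201, which carries the 14 additional codons, had 805, 987 and 1167 normalized counts in the Sham group and 1068, 1116 and 1318 in HF-HI. Every one of the 8 HF-HI values exceeded the Sham median, 1 exceeded the highest Sham value, and 4 of 7 Sham libraries lay below every HF-HI library. The means were 992 ± 134 in Sham and 1136 ± 78.5 in HF-HI, 14.5% more in HF-HI, with a log2 ratio of 0.20 and a VSD difference of 0.10. These values rest on 660 to 1665 estimated reads per library for Ndrg2-201 and 964 to 3341 for Ndrg2-202. Most of these fall on bases that both transcripts share and were divided between them.

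The exon-containing transcript made up 24.8%, 29.4% and 36.0% of the Ndrg2 counts in Sham (lowest, median and highest) and 33.7%, 35.9% and 40.6% in HF-HI. The mean share was 30.6% ± 3.94 in Sham and 36.4% ± 2.09 in HF-HI (SD), a difference of 5.80 percentage points. All 8 HF-HI values exceeded the Sham median, 4 of them above every Sham library, while Sham replicate 1, with the highest Sham share, exceeded 4 HF-HI libraries.

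The sum of both transcripts changed less than either. It was 3043, 3249.6 and 3355 normalized counts in the Sham group and 3004, 3136 and 3243 in HF-HI, with means of 3247 ± 105 and 3124 ± 76.3, a change of −3.78% from Sham to HF-HI. The sum fell short of the Sham median in each of 8 HF-HI libraries. The groups overlapped, though 5 of 7 Sham libraries lay above every HF-HI library and 1 HF-HI library lay below every Sham library. At an unadjusted limma p under 0.05, 8.83% of all 10370 transcripts and 9.94% of all 7740 gene sums were called in this contrast, and nothing is read from these shares for Ndrg2.

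**Figure D3:**
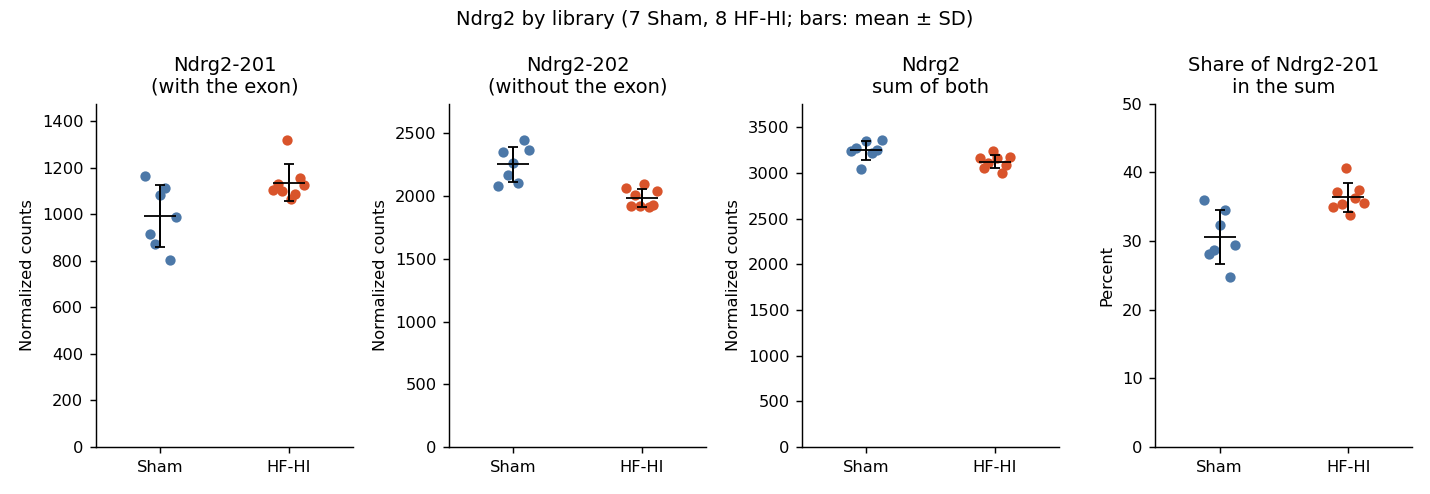
Ndrg2 in every library: normalized counts of Ndrg2-201, of Ndrg2-202 and of their sum, and the percent of the sum in Ndrg2-201, with 1 point per library and the mean ± SD of 7 Sham and 8 HF-HI libraries. The share of Ndrg2-201 lies between 24.8% and 36.0% in Sham and between 33.7% and 40.6% in HF-HI, while the mean of the sum differs by −3.78% in HF-HI.

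Depth moved with the Ndrg2 split in HF-HI libraries. Across the 8 HF-HI libraries, the share of Ndrg2-201 was higher in shallower libraries (Pearson r = −0.90 with the log2 size factor, exact permutation p = 6.0e-04, Spearman rho = −0.90, exact permutation p = 0.00456), and r was −0.82 without the 2 libraries farthest from the median depth. Across the 7 Sham libraries the relation had the opposite sign and did not pass (r = 0.46, exact permutation p = 0.309, rho = 0.61, exact permutation p = 0.167, and r = 0.57 without the 2 farthest). Adjusted over these 2 relations, the p of Pearson's r was 0.00119 in HF-HI and 0.309 in Sham, by exact permutation, and that of Spearman's rho was 0.00913 and 0.167. Each transcript also moved with depth in HF-HI. Pearson's r with the log2 size factor was 0.84 for Ndrg2-202, which was thus lower in shallower libraries, and −0.76 for Ndrg2-201. In Sham it was −0.05 and 0.58, and these relations of single transcripts were not tested. In the range of size factors that both groups reached (0.818 to 1.217), the share was 28.1% to 28.7% in 2 Sham libraries. It was 33.7% to 35.6% in 4 HF-HI libraries. Ndrg2-202 was 2168 to 2351 normalized counts in these Sham libraries and 2010 to 2096 in these HF-HI libraries. Sham libraries outside the range were deeper, with shares from 24.8% (replicate 6) to 36.0% (replicate 1). Of these, replicate 7 was just outside (size factor 1.221, share 29.4%). HF-HI libraries outside it were shallower, with shares of 36.2% to 40.6%. Of these, replicate 6 was just outside (size factor 0.813, share 36.2%). With the log2 size factor as a covariate, the difference in share was 5.03 percentage points. That covariate takes the same slope in both groups, where the relation had opposite signs, so this value cannot show the part of depth. The part of depth in the difference was not tested further.

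Ndrg3 showed a smaller exon-containing share and no called difference. Ndrg3, which in other systems binds lactate under hypoxia, was dominated by Ndrg3-202, the transcript without the exon. Ndrg3-202 had 2164, 2425 and 2543 normalized counts in the Sham group and 2065, 2349 and 2496 in HF-HI (lowest, median and highest). The groups overlapped, and 6 of 8 HF-HI values were under the Sham median. The VSD difference was −0.04, with a 95% interval of −0.10 to 0.02 (limma, unadjusted p = 0.178, adjusted p = 0.716). Without Sham replicate 7, whose 2164 was far below the other Sham libraries, the difference was −0.06 and the unadjusted limma p was 0.0473.

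Ndrg3-201, with the exon, had 249, 314 and 454 normalized counts in the Sham group and 257, 330 and 523 in HF-HI, and the groups overlapped almost fully. The VSD difference was 0.02 (interval −0.08 to 0.12, limma unadjusted p = 0.657, adjusted p = 0.924). Its share of the Ndrg3 counts was 12.0% ± 2.81 in Sham and 13.1% ± 3.25 in HF-HI, a difference of 1.05 percentage points (exact two-sided permutation over 6435 splits, p = 0.519). Without HF-HI replicate 4 that difference was 0.13, and leaving out other libraries gave up to 1.78. The Ndrg3 sum was 2752 ± 118 normalized counts in the Sham group and 2668 ± 107 in HF-HI, a log2 difference of −0.04 (limma unadjusted p = 0.187, adjusted p = 0.679). Its 95% interval for the change from Sham to HF-HI was −7.53% to 1.66%.

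Ndrg4, a neuronal and cardiac member of the family, had the widest spread among its transcripts and no called difference. Its main transcript, Ndrg4-202, from the downstream start and with the exon, had 3539, 4642 and 6624 normalized counts in the Sham group and 2790, 4395 and 5866 in HF-HI. Ndrg4-203, which skips the exon, had 1260, 3364 and 3746 in Sham and 2428, 3418 and 4881 in HF-HI. The groups overlapped for both, and in both the extremes belonged to single libraries: Sham replicate 1 held the highest Ndrg4-202 and the lowest Ndrg4-203, and HF-HI replicate 4 the reverse. The VSD difference was −0.12 for Ndrg4-202 (interval −0.34 to 0.09, limma unadjusted p = 0.244) and 0.12 for Ndrg4-203 (interval −0.16 to 0.41, limma unadjusted p = 0.362). Without Sham replicate 1 the difference of Ndrg4-203 was 0.0010 and that of Ndrg4-202 was −0.06.

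The transcripts from the upstream start were less abundant. Ndrg4-201 had 1464, 1642 and 1886 normalized counts in the Sham group and 1110.3, 1613 and 1993 in HF-HI (VSD difference −0.03, interval −0.15 to 0.09, limma unadjusted p = 0.600). The decay-annotated Ndrg4-210 had 681, 1094 and 2408 in Sham and 946, 1239 and 1715 in HF-HI (VSD difference 0.02, interval −0.21 to 0.26, limma unadjusted p = 0.826). The upstream start accounted for 26.9% ± 4.19 of the Ndrg4 counts in Sham and 27.1% ± 2.13 in HF-HI (exact two-sided permutation p = 0.938). Transcripts with the exon made up 71.4% ± 8.15 in Sham and 67.6% ± 7.05 in HF-HI, a difference of −3.78 percentage points (exact two-sided permutation p = 0.383). It was −0.91 without Sham replicate 1 and −1.80 without HF-HI replicate 4. Adjusted over the 3 shares tested for Ndrg3 and Ndrg4, the exact permutation p was 0.779 for both exon shares and 0.938 for the start. The Ndrg4 sum was 10882 ± 479 normalized counts in the Sham group and 10670.0 ± 453 in HF-HI, a log2 difference of −0.03 (limma unadjusted p = 0.415), with an interval for the change of −6.69% to 3.03%.

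Ndrg1-201 was nearly equal in both groups, at 512, 583 and 624 normalized counts in the Sham group and 534, 578 and 629 in HF-HI. The means were 578 ± 35.6 and 582 ± 33.9, and the VSD difference was 0.0037 (interval −0.03 to 0.04, limma unadjusted p = 0.839). Taken over Ndrg1, Ndrg3 and Ndrg4, 0 of 7 transcripts and 0 of 3 gene sums were called at an unadjusted limma p under 0.05, beside 8.83% of all transcripts and 9.94% of all gene sums. The smallest adjusted limma p among the 7 transcripts was 0.716. No transcript of the whole table passed the study's adjusted threshold of 0.1 in limma, where 916 had an unadjusted p under 0.05. The study itself reported differentially expressed genes at 1 month by DESeq2 on counts, a test that was not run here.

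**Figure D4:**
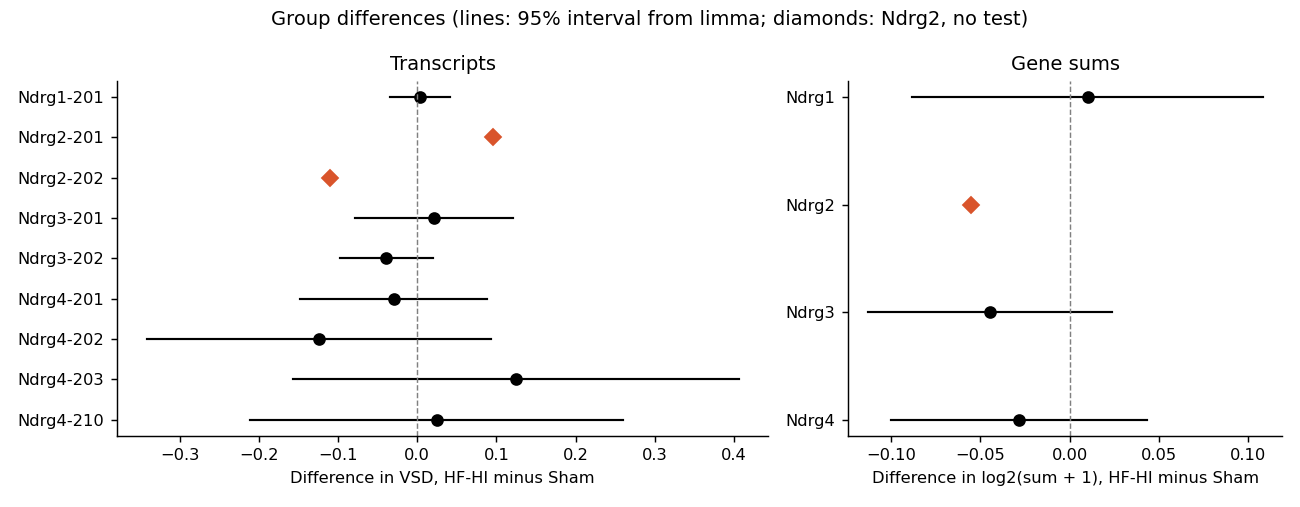
Difference between HF-HI and Sham for the 9 transcripts in VSD (left) and for the 4 gene sums on the log2 scale (right), with 95% intervals from limma as lines and Ndrg2 as diamonds without an interval. All 10 tested intervals cross 0, and those of Ndrg4-203, Ndrg4-210 and Ndrg4-202 are the widest among the transcripts.

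In each gene with several listed transcripts, gene sums varied less between libraries than the transcripts did. The coefficient of variation of the sum in Sham was 3.23% for Ndrg2, 4.27% for Ndrg3 and 4.41% for Ndrg4. For the transcripts it was 13.5% for Ndrg2-201 and 6.26% for Ndrg2-202, 23.8% for Ndrg3-201 and 5.19% for Ndrg3-202, and between 10.05% and 44.3% for the 4 transcripts of Ndrg4. In HF-HI the sums varied by 2.44%, 4.01% and 4.24%.

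The downstream Ndrg4 transcripts that differ by the exon moved against each other across libraries. Those of Ndrg3 and Ndrg2 did so by Pearson's r but did not pass by Spearman's rho. After removal of the group means, Ndrg4-202 and Ndrg4-203 had a Pearson r of −0.78 over 15 libraries (permutation p = 6.4e-04) and a Spearman rho of −0.78 (permutation p = 7.4e-04), with r = −0.80 without the 2 libraries farthest from the median of Ndrg4-202. Ndrg3-201 and Ndrg3-202 had r = −0.58 (permutation p = 0.0278) and rho = −0.48 (permutation p = 0.0810), with r = −0.70 without the 2 farthest. Ndrg2-201 and Ndrg2-202 had r = −0.65 (permutation p = 0.0346) and rho = −0.51 (permutation p = 0.106), and r weakened to −0.38 without the 2 farthest, so that this relation leans on them. Ndrg4-201 and Ndrg4-210, which share the upstream start and the exon, had r = −0.37 (permutation p = 0.125) and rho = −0.32 (permutation p = 0.258), with r = −0.26 without the 2 farthest. Adjusted over the 4 relations, the permutation p of Pearson's r was 0.00256 for Ndrg4-202 and Ndrg4-203, 0.0462 for the pairs of Ndrg3 and of Ndrg2, and 0.125 for the last pair. That of Spearman's rho was 0.00296, 0.141, 0.141 and 0.258. Reads that fall on shared bases are divided between such transcripts by an estimate, and the part of that division in these relations and in the Ndrg2 split was not tested.

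**Figure D5:**
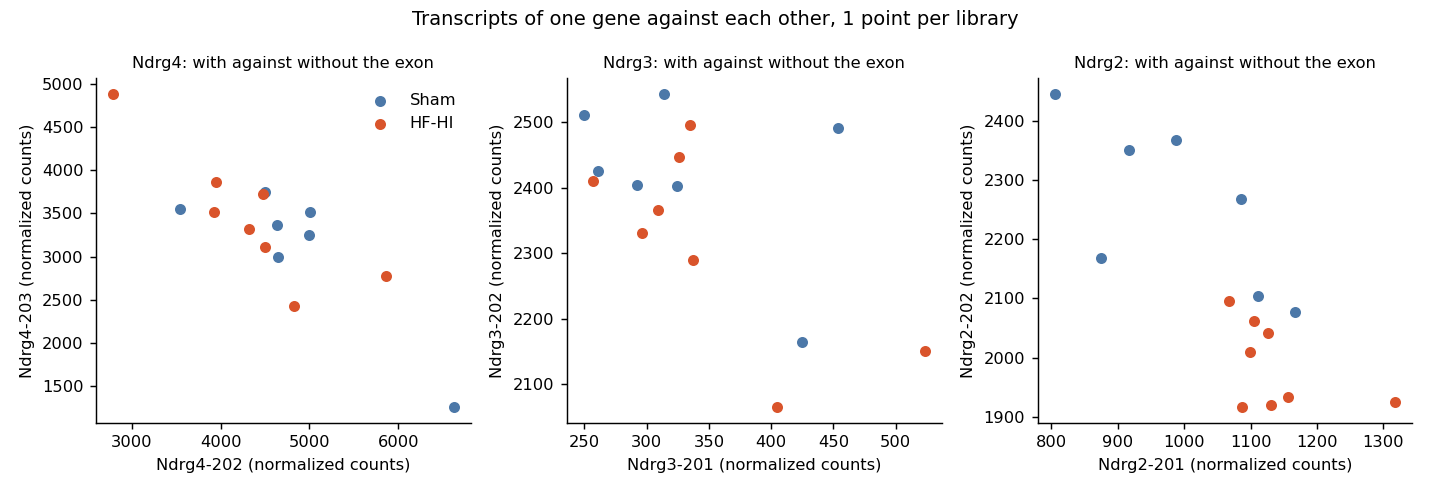
Normalized counts of the transcript with the cassette exon (horizontal axis) against that without it (vertical axis) for Ndrg4, Ndrg3 and Ndrg2, with 1 point per Sham or HF-HI library. Points fall from upper left to lower right in Ndrg4, where r was −0.78 after removal of the group means, and more loosely in Ndrg3 (−0.58) and Ndrg2 (−0.65), and in Ndrg2 the HF-HI points lie to the lower right of most Sham points.

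Genes around the family were examined in 3 pathway lists. Of kinases that act on NDRG proteins and their activator complex mTORC2 (Sgk1, Gsk3b, Akt1, Rictor and others), 12 of 16 genes were listed with 17 transcripts, and 0 were called at an unadjusted limma p under 0.05, beside 8.83% of all transcripts, although 1 (Akt2-205, limma unadjusted p = 0.00687, named after its values were seen) was called with the log2 size factor as a covariate. These transcripts had a median log2 ratio of 0.03, beside −0.0019 over all transcripts. Of MYC, hypoxia and p53 regulators, 14 of 21 genes were listed with 15 transcripts. Of these, 2 were called (13.3%, beside 8.83% of all transcripts), both higher in HF-HI (median log2 ratio 0.03). Hif1an-201, which encodes the asparaginyl hydroxylase that inhibits HIF, rose from 362 ± 32.4 to 416 ± 20.3 normalized counts and exceeded the Sham median in 8 of 8 HF-HI libraries (limma unadjusted p = 0.00244, adjusted p = 0.340). Epas1-201, which encodes the hypoxia-inducible factor HIF-2α, rose from 483 ± 24.7 to 538 ± 39.3 and exceeded the Sham median in 7 of 8 (limma unadjusted p = 0.00909, adjusted p = 0.408). Both calls held with the log2 size factor as a covariate (limma unadjusted p = 0.00761 and 0.0189) and in each of 15 fits that left out 1 library, and neither passed adjustment over all transcripts. The count for this list was 4 without Sham replicate 5 or HF-HI replicate 1. Of the glutamate uptake and Na,K-ATPase list, which holds astrocyte genes such as Slc1a2, 7 of 7 genes were listed with 13 transcripts, and 0 were called (median log2 ratio −0.05). Without HF-HI replicate 8 there were 2 calls in it, and leaving out any other library gave 0 or 1 in it and in the kinase list.

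Markers of cell types were counted because Ndrg1 and Ndrg2 are themselves glial. The 25 astrocyte genes had 42 transcripts, of which 1 was higher and 3 were lower (9.52%, beside 8.83% of all transcripts, with a median log2 ratio of −0.05). The higher one and 1 of the lower ones were transcripts of the same gene. The summed level of the astrocyte list was 103390 to 105647 normalized counts in the Sham group and 100290 to 106665 in HF-HI. Oligodendrocyte markers had 0 of 30 transcripts called, with a summed level of 37476 to 43127 in Sham and 35861 to 44037 in HF-HI. Microglial markers had 1 of 9 called (11.1%), lower, endothelial markers 0 of 10 and choroid plexus markers 0 of 5, the last with a summed level of 1972 to 11212 in Sham libraries and 2018 to 13832 in HF-HI libraries. Defining markers of the last list other than Ttr and Enpp2 were not listed. Markers of striatal projection neurons, a neighbouring tissue, had 3 of 21 transcripts called (14.3%), all lower (median log2 ratio −0.16). Their summed level was 13086 to 18770.0 in Sham and 9973 to 18272 in HF-HI, with means of 16153 ± 2142 and 13937 ± 2725 (SD). Cortical excitatory neuron markers had 3 of 19 called (15.8%), all higher (median log2 ratio 0.07). These counts moved with single libraries: astrocyte markers had 7 calls without HF-HI replicate 1, striatal markers 7 without Sham replicate 5 and 6 without HF-HI replicate 6, cortical excitatory markers 1 without HF-HI replicate 2, microglial markers 0 to 2, and oligodendrocyte and endothelial markers 0 or 1. With the log2 size factor as a covariate, striatal markers had 1 call, microglial markers 0 and oligodendrocyte markers 1. Across 15 libraries with group means removed, no relation of the Ndrg2-201 share to these summed levels passed. Pearson's r was −0.33 for the striatal list (permutation p = 0.198, rho = −0.35, permutation p = 0.188), −0.07 for the astrocyte list (permutation p = 0.753, rho = −0.11, permutation p = 0.686) and 0.38 for the cortical excitatory list (permutation p = 0.127, rho = 0.45, permutation p = 0.103). Without the 2 libraries farthest from the median of the list's level, r was −0.54, 0.02 and 0.65. Adjusted over these 3 relations, the permutation p of Pearson's r was 0.297, 0.753 and 0.297, and that of Spearman's rho was 0.281, 0.686 and 0.281. Within Sham alone, r was −0.53, −0.22 and 0.67, and within HF-HI alone −0.19, 0.0004 and 0.16. These values within a group, and those without the 2 farthest libraries, were not tested.

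By likeness across libraries, measured as Pearson's r of log2 gene sums over 15 libraries after removal of the group means, the genes most like Ndrg2 were Kidins220 (r = 0.84), Tial1 (0.81), Myef2 (0.80), Hook1 (0.79) and Ywhab (0.79), out of 4822 genes. For Ndrg1 they were Cpsf7 (0.78), Ireb2 (0.77), Med12l (0.75), Nfe2l1 (0.74) and Tlk2 (0.74). For Ndrg3 they included Chd8 (0.80), Igfbp5 (0.80), Psmd12 (0.79) and the mitochondrial ribosomal RNA gene mt-Rnr1 (0.77). For Ndrg4 they were Mgat5b (0.82), Gpr158 (0.82), 2210016L21Rik (0.81), Gabrd (0.81) and Tprgl (0.80). The 95th percentile of r over all compared genes lay between 0.45 and 0.53, and these libraries share depth and dissection. Leaving out 1 library moved the r of Hook1 to Ndrg2 as low as 0.58 and that of Tlk2 to Ndrg1 to 0.55. Among the family members themselves, r was 0.46 for Ndrg1 and Ndrg2 and between −0.30 and 0.16 for the other 5 pairs.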

How the data were processed

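Cortical total RNA of 7 Sham and 8 HF-HI libraries was analysed. Per the study's methods, the authors depleted ribosomal RNA, made stranded libraries, mapped their reads to mm10 with STAR, estimated counts per transcript with eXpress, which divides reads that match several transcripts between them, and normalized with DESeq2. The authors deposited a table of 10370 transcripts in variance-stabilized units (VSD), a log2 scale. The annotation release was not given in the sources used here. Low counts are compressed on it: a doubling moves the VSD by 0.33 at 300 normalized counts, 0.53 at 1000 and 0.73 at 3000. Inversion of the transformation gave whole reads for 100% of the values within 0.1 reads, and from them size factors and normalized counts. The lowest mean in the table was 107.9 normalized counts, so rarer transcripts were not analysed here. Reads cover the listed transcripts only, and counting precision follows from the reads given beside the values.

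Names, exons and sequences came from GENCODE M21 (GRCm38), where 10241 transcripts of 7740 genes had an entry. Transcripts were tested on the VSD values, and gene sums on log2(sum + 1), with limma 3.58.1 in R 4.3.3 (group as the only term, eBayes with trend, two-sided, Benjamini-Hochberg over the whole table), chosen for the deposited log2 unit in place of the count model of the study, and voom on the recovered reads was an alternative. The code was tested on simulated data. Shares were tested by exact permutation of the group labels and relations by 100000 permutations within groups (within a single group, by all pairings), all chosen after seeing the data, in SciPy 1.17.1. The members, gene lists and tests were chosen with earlier results of these data known. Named genes are every listed Ndrg transcript, the 5 genes most like each member among those with a mean of at least 300 normalized counts, and the called transcripts of the pathway lists. A gene that this rule names is not reported here. No pair of libraries of a group was as alike as sampling noise alone would make it (chi-square per degree of freedom at least 9.55).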

Additional observations from a re-analysis of the deposited data

Results flagged for a closer look

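In 32 groups of values examined (the 9 transcripts, 3 gene sums and 4 shares, in Sham and in HF-HI), 5 had a library at one end that lay far from the others of its group, where chance gives about 5% of groups. The groups are not independent, because sums and shares are computed from the same transcripts, so this count cannot show an excess. Ndrg2-201 was 1318 normalized counts in HF-HI replicate 4, the shallowest library, against 1068 to 1157 in the other 7. Ndrg3-202 was 2164 normalized counts in Sham replicate 7, against 2403 to 2543 in the others. Ndrg4-203 was 1260.3 normalized counts in Sham replicate 1, against 2996 to 3746 in the others, and the share of Ndrg4 transcripts with the cassette exon was 88.6% in the same library, against 64.8% to 74.0%. Ndrg4-210, the decay-annotated transcript, was 2408 normalized counts in Sham replicate 3, against 681 to 1362 in the others. No explanation was tested for these values.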

How the results depend on the processing

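The Ndrg2 differences kept their direction in every alternative run, 25 for each transcript, 24 for the sum and 16 for the share. The family was selected on Ndrg2 in these same libraries, so these runs describe its differences and give no support for them. Leaving out 1 library at a time moved the VSD difference of Ndrg2-201 between 0.07 and 0.11, that of Ndrg2-202 between −0.12 and −0.10, and the difference in share between 4.84 and 6.71 percentage points. On scales that do not compress counts the differences were larger by construction: 0.20 and −0.18 for log2(normalized count + 1), 0.20 and −0.18 with 10 in place of 1, and 0.18 and −0.17 by voom. Some settings made them smaller than the main VSD differences of 0.095 for Ndrg2-201 and −0.110 for Ndrg2-202. With the log2 size factor as a covariate they were 0.089 and −0.089. The log2 difference of the Ndrg2 sum was then −0.040, against −0.055 in the main fit. Library weights gave 0.084 and −0.104, and −0.058 for the sum. The count of called transcripts fell from 916 to 533 with the log2 size factor as a covariate and to 525 among transcripts with a mean of at least 300, where fewer were tested. Called gene sums fell from 769 to 449 with that covariate, for which the cause was not tested. Of the 7 tested transcripts, 0 to 1 were called when 1 library was left out, and 0 under the other alternatives. Directions near 0 were not stable, with no called value among those that turned. With the size factor as a covariate the VSD difference was −0.017 for Ndrg3-201, 0.030 for Ndrg4-201 and −0.051 for Ndrg4-210. Leaving out 1 library gave −0.0067 to 0.011 for Ndrg1-201, −0.019 to 0.029 for its gene sum, −0.0069 to 0.046 for Ndrg3-201, −0.055 to 0.010 for Ndrg4-201, −0.036 to 0.12 for Ndrg4-210 and −0.85 to 1.25 percentage points for the upstream start share of Ndrg4. Same-numbered libraries did not deviate together (r from −0.14 to 0.09 over 7 pairs), so no pairing by number was seen, though these values cannot exclude it. A fit with a replicate block called 890 transcripts, 750.0 gene sums and 0 of the 7 tested transcripts, and gave −0.0025 for Ndrg1-201 and −0.0064 for its sum. Depth limits the rarer transcripts: Ndrg3-201 rests on 150 to 519 estimated reads per library and Ndrg1-201 on 286 to 868.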
